A study of Homo sapiens with 8 samples.

Results

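The genes described here encode the enzymes that add methyl groups to histones and those that remove them. They were chosen by symbol: protein-coding genes on the autosomes or the X chromosome whose GENCODE symbol begins with KDM1 to KDM8, KMT2 to KMT5, SETD or PRMT followed by a digit, or SUV39H or EHMT, or equals NSD1, NSD2, NSD3, EZH1, EZH2 or DOT1L. This gave 54 genes of the 60659 in the count table, 51 on autosomes and 3 on the X chromosome. The 8 RNA libraries came from SK-N-SH, an established human neuroblastoma cell line, with 2 biological replicates in each of 4 groups. Every culture was given all-trans retinoic acid (ATRA) at 10 μM for 24 h per the labels, a treatment that drives these cells toward a neuronal state. In the overexpression experiment, cells carrying FLAG-tagged ZMYND8 in a doxycycline (Dox) inducible lentiviral vector were set against parental cells, with Dox given to both. The parental cells are not described as carrying an empty vector. The methods give Geneticin selection for the transduced cells and describe none for parental cells, so selection and ZMYND8 cannot be told apart. In the knockdown experiment, cells with ZMYND8 knockdown (ZMYND8 KD) were compared with their own KD control. The labels of these groups name ATRA and no Dox. The methods describe lentiviral shRNA in pLKO.1-puro for knockdown, with puromycin selection given for SH-SY5Y and neural stem cells. For SK-N-SH the paper describes a ZMYND8 knockout, and its knockdown methods do not name this line. No untreated cells are in these groups, so every value is a level under ATRA.

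Histone methylation is written by methyltransferases, which transfer methyl groups from S-adenosylmethionine to lysine or arginine, and erased by the flavin-dependent KDM1 and the iron-dependent Jumonji demethylases. The outcome depends on the residue: methylation of lysine 4 of histone H3 (H3K4) marks promoters and enhancers, H3K36 and H3K79 methylation marks transcribed gene bodies, and H3K9, H3K27 and H4K20 methylation is known from silent or compacted chromatin. Neuronal genes often lose H3K27 methylation as neural cells differentiate. ZMYND8 is a reader of histone marks with a PHD finger, a bromodomain and a PWWP domain, and KDM5C and KDM1A are known as its partners in repression.

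The promoters of the members with the largest changes are shown first, because the results turn on these genes. KDM7A, KDM6B and KMT5C passed every threshold of the study in the overexpression comparison, and SETD7 differed in opposite directions in the 2 experiments. KDM7A (ENSG00000006459) lies on chromosome 7 from 140084746 to 140176983, KDM6B (ENSG00000132510) on chromosome 17 from 7839904 to 7854796, KMT5C (ENSG00000133247) on chromosome 19 from 55339853 to 55348121 and SETD7 (ENSG00000145391) on chromosome 4 from 139495941 to 139606699 of GRCh38, as the count table gives them. The 250 bases before each RefSeq start (GRCh38.p14) read 5′ to 3′ on the strand of the gene, with the motifs searched for in capitals. KDM6B has 2 RefSeq starts, the later of which lies closer to the start of the gene in the count table, and both are given. The window of SETD7 lies inside the gene as the count table gives it, away from its 5′ end at 139606699.
KDM7A chr7:140176984-140177233 (- strand): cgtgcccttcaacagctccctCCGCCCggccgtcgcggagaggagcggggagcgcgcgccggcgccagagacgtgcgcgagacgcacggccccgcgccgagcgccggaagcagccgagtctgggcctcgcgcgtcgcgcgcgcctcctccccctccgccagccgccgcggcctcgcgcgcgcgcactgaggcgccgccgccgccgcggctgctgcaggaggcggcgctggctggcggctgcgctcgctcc
KDM6B first start chr17:7833967-7834216 (+ strand): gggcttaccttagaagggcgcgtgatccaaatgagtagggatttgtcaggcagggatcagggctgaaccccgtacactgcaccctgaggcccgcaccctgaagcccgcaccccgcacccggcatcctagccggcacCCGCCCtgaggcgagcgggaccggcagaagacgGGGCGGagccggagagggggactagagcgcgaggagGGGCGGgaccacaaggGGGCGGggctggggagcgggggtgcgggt
KDM6B later start chr17:7839667-7839916 (+ strand): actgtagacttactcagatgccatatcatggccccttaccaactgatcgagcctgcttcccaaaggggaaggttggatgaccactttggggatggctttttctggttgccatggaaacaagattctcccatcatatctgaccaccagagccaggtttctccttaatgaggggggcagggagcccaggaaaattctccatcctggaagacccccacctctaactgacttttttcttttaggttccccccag
KMT5C chr19:55339626-55339875 (+ strand): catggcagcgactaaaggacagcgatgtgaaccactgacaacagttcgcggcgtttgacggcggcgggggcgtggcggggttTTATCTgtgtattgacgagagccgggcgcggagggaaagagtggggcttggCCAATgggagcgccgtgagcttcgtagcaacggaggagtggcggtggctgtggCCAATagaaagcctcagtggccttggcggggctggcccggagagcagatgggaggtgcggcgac
SETD7 chr4:139556220-139556469 (- strand): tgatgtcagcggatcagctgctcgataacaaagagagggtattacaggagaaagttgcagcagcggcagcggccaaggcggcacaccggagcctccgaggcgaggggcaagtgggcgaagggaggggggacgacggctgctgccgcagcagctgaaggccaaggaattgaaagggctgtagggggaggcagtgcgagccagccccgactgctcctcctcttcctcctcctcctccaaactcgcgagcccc
The motifs searched on both strands were the nuclear receptor half-site AGGTCA, the GC box GGGCGG, the CCAAT box CCAAT and the GATA motif AGATAA; none overlaps another in these 5 windows. The window of KDM7A held 1 GC box, that of the first KDM6B start 4 GC boxes, and that of KMT5C 2 CCAAT boxes and 1 GATA motif. The later KDM6B window and that of SETD7 held none of these letters. Of all 35116 windows of the same length in the table, 12.1% held the half-site, 42.6% a GC box, 32.0% a CCAAT box and 9.17% the GATA motif. The table held 70 windows for 50 of the 54 members, of which 4.29%, 80.0%, 32.9% and 5.71% held these motifs in the same order. A match is a match of letters and not a measured binding site.

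The libraries held 38316523 to 56256979 counts on genes. ZMYND8 RNA followed the labels: its normalized counts were 3674 and 3532 in parental cells against 207300 and 210000 with overexpression (log2 fold change 5.87, SE 0.060), and 3008 and 3082 in the KD control against 1584 and 1591 after knockdown (-0.94, SE 0.056). Of the 54 members, 50 had enough counts to be tested in each comparison. EHMT2, an H3K9 methyltransferase that partners EHMT1, had 0 counts in all 8 libraries, and 100% of its exonic sequences of 31 bases also occur on alternate contigs of the reference, so its level cannot be read from this table. KDM4E had at most 1 count per library and KDM4F a single count in 1 library. PRMT8, a brain-enriched arginine methyltransferase, had 0 counts in both parental libraries, 13 and 8 with overexpression, 2 and 1 in the KD control and 2 and 0 after knockdown.

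Per length of exons (FPKM), the 50 tested members were expressed at 0.748 to 33.2 on average over the 8 libraries, with a median of 8.35 against 4.97 for the 14628 protein-coding genes tested. PRMT1, the main enzyme of asymmetric arginine dimethylation, had the highest level, followed by KDM5C, KDM3B, KDM1A and PRMT5. Mean FPKM of PRMT1 was 36.5 ± 1.6 (SD, n = 2) in parental cells, 40.5 ± 1.5 with ZMYND8 overexpression, 26.9 ± 2.0 in the KD control and 28.8 ± 0.68 after knockdown. KDM5C stood at 32.0 ± 0.68, 29.0 ± 0.089, 24.6 ± 0.77 and 27.1 ± 1.1 in the same order, so the order of these neighbours was kept in each group, although their libraries came close in the KD control. KDM8, KDM4D and KMT5C formed the lower end. KDM8 stood at 0.900 ± 0.050 FPKM in parental cells and 0.560 ± 0.030 in the KD control. The members had a median summed exon length of 8594.5 bases against 5227 for the same protein-coding genes, and a median GC content of 47.0% against 48.2%.

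**Figure D1:**
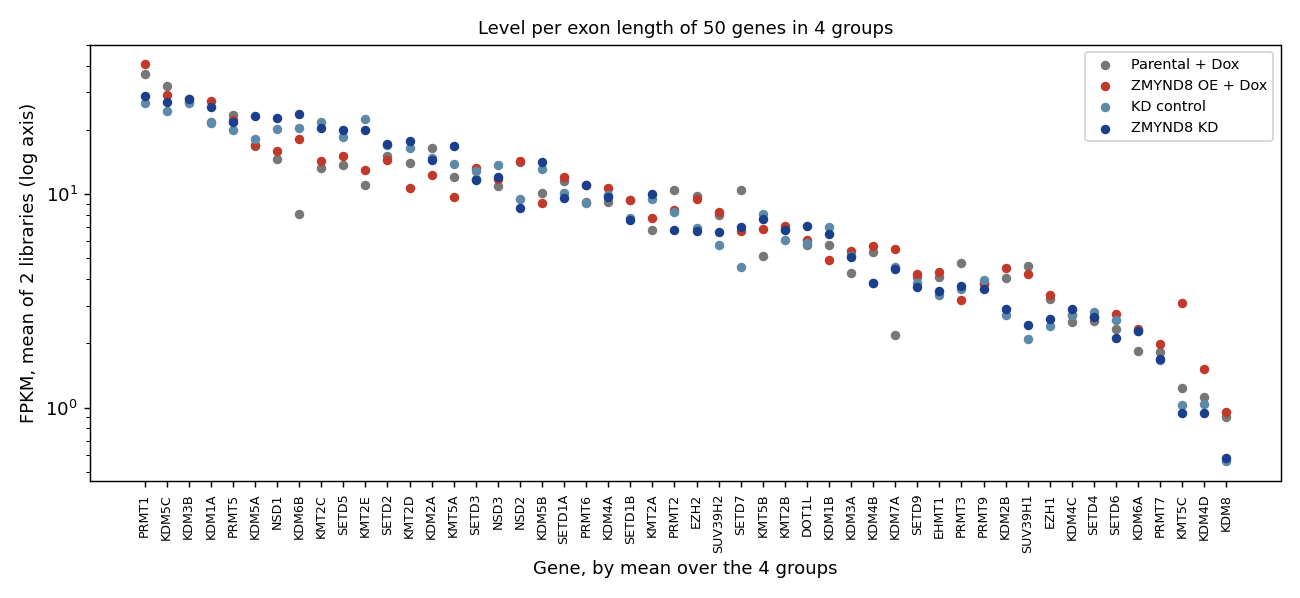
Mean FPKM of 2 libraries (log axis) for each of the 50 tested members, ordered by their mean over the 4 groups, with 1 point per group. Most members lie within a narrow range across groups, whereas KDM6B, SETD7, KDM7A and KMT5C spread the most around their place in the order.

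ZMYND8 overexpression was compared with parental cells to ask which of these enzymes change at the RNA level when ZMYND8 is raised under ATRA. At a Benjamini-Hochberg adjusted p below 0.05, 18 of the 50 tested members were higher with overexpression and 9 were lower, while 23 did not pass. Over all 20835 genes tested, 31.7% were higher and 29.1% lower, so the share of members that were higher was close to that of all genes. With the trend over exon length and GC content taken out, 22 members were higher and 14 lower, against 31.8% and 30.5% of all genes. The median log2 fold change of the members was 0.09 against 0.03 for all genes, and their median absolute change was 0.14 against 0.44. The sets are unlike, as every member is protein-coding whereas 14628 of the 20835 genes are. Under the thresholds of the study, read here as an adjusted p below 0.05, a mean normalized count above 20 and a log2 change of 1 or more either way, 3 members were called higher, against 11.8% of all genes, and 0 were called lower, against 6.84% of all genes. The largest decrease of a member was 0.62 on the log2 scale. At an unadjusted p below 0.05 edgeR had 9 members lower, and DESeq2 also called 0 lower under these thresholds. Under upper quartile normalization 27 members were higher and 6 lower, and without parental replicate 1, 11 were higher. In a bulk sample, fewer cells of a type and less RNA per cell cannot be told apart.

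Knockdown was compared with the KD control to ask the same question for the loss of ZMYND8. Here 8 of the 50 tested members were higher and 2 lower, against 13.4% and 10.8% of all 19789 genes tested, and 40 did not pass. The thresholds of the study called 0 members higher and 0 lower, by edgeR and by DESeq2 (background 1.36% and 0.596%), and at an unadjusted p below 0.05 edgeR had 13 higher and 6 lower. The largest absolute log2 fold change of a member was 0.62. The members' median was 0.04, against -0.01 for all genes. Without replicate 2 of the KD control, 4 members were higher and 1 lower, and PRMT6, NSD1, NSD3, KDM6B and DOT1L no longer passed. Without knockdown replicate 1 there was 1 lower, without knockdown replicate 2 there were 5, and under upper quartile normalization 7 were higher and 5 lower.

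Marker genes of cell state moved between the same groups. The summed FPKM of 10 adrenergic neuroblastoma markers was 126 to 127 in the parental libraries, 361 to 379 with overexpression, 271 to 285 in the KD control and 208 to 235 after knockdown, with TH, the enzyme of catecholamine synthesis, at 8 counts or fewer in all of them. Of the 9 tested, 9 were higher with overexpression. After knockdown 5 were lower and 4 did not pass, with log2 fold changes from -0.86 to 0.96. The summed FPKM of 7 mesenchymal markers was 785 to 789, 395 to 426, 413 to 420 and 492 to 501 in the same order of groups. The single markers did not all follow this sum. With overexpression TWIST1 was higher and 6 were lower. After knockdown VIM, CD44 and YAP1 were higher, and PRRX1 and SNAI2 lower. Between the controls 3 were higher and 4 lower. A list of 20 proliferation genes summed to 653 in both parental libraries, 613 to 679 with overexpression, 280 to 299 in the KD control and 251 to 276 after knockdown. The sum hides single genes that moved apart: with overexpression 5 of the 20 were higher and 9 lower. After knockdown 0 were higher and 4 lower. The labels call the line neuroblastoma epithelial cells. EPCAM had 22 to 56 counts and CDH1 at most 12 in any library, and the 5 epithelial markers, carried by the keratins KRT8 and KRT18, summed to 137 to 138, 51.1 to 68.5, 114 to 134 and 124 to 138. Leukocyte markers summed to at most 0.284 and Schwann or glial markers to at most 1.81, with PTPRC, CD3E and SOX10 at 8 counts or fewer in every library. The part of these shifts in the results on the members was not tested.

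**Figure D2:**
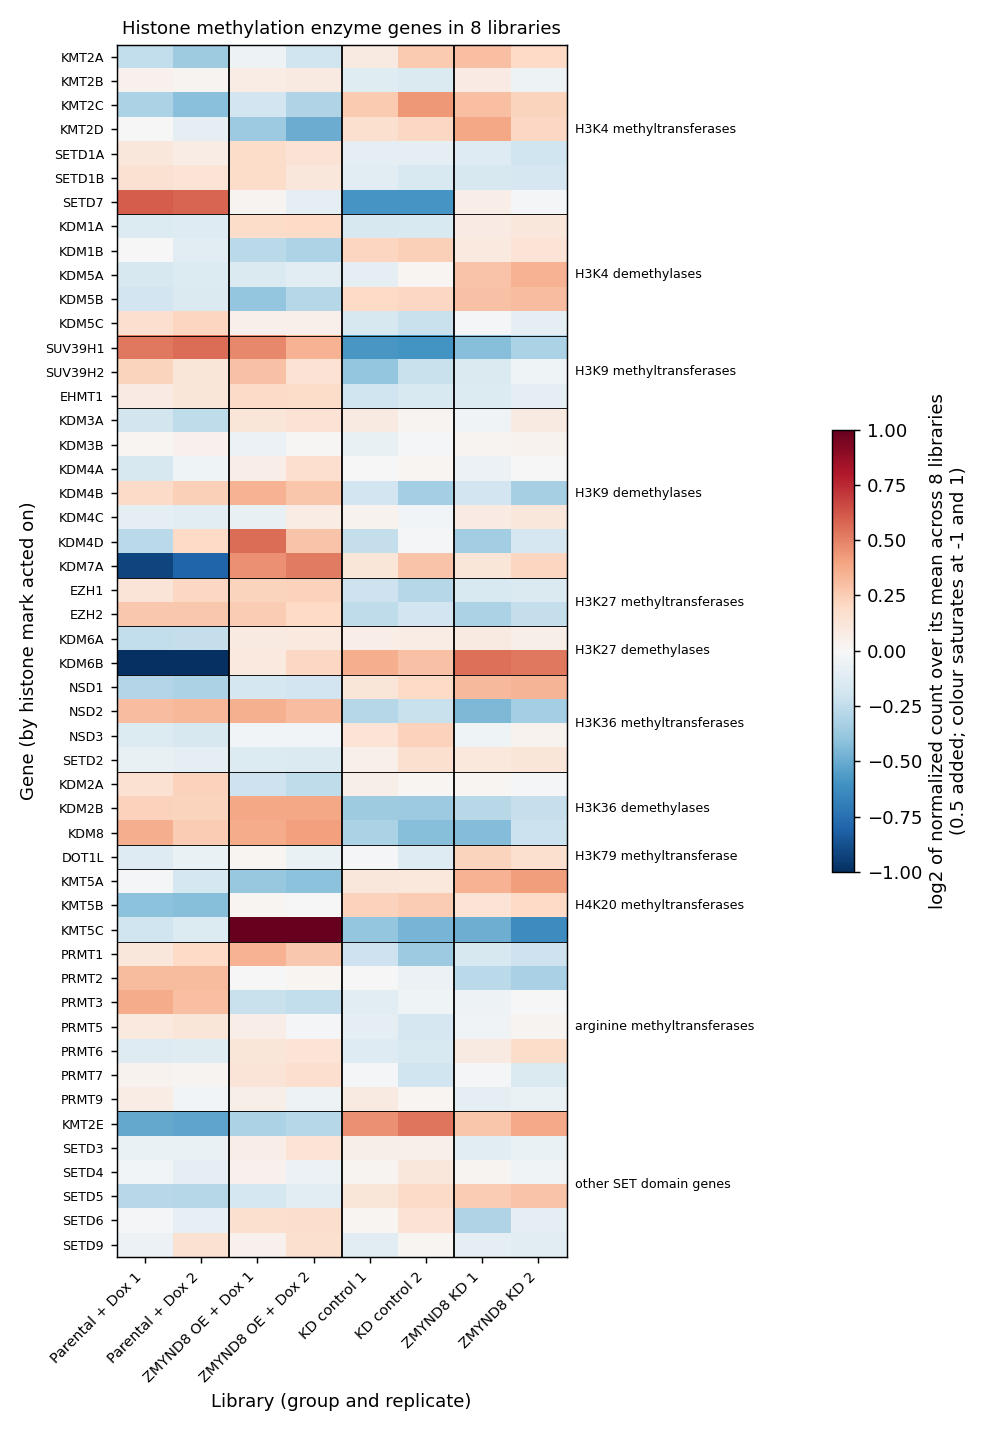
Rows are the 50 tested members grouped by the mark they act on, columns are the 8 libraries, and colour is the log2 of the normalized count over the gene's mean across libraries. Replicates of a group have like colours, KMT5C stands out in the overexpression libraries, and KDM6B and KDM7A are lowest in the parental libraries.

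Among the writers of H3K4 methylation, SETD7 was the member that differed most. SETD7 monomethylates H3K4 and several non-histone proteins. Its normalized counts were 7388 and 7268 in the parental libraries and 4926 and 4538 with overexpression, a log2 fold change of -0.62 (SE 0.054, adjusted p = 2.98e-06). They were 3220 and 3221 in the KD control and 5065 and 4796 after knockdown, a log2 fold change of 0.62 (SE 0.052, adjusted p = 1.99e-05). The groups did not overlap in either experiment, and inside each experiment the libraries with more ZMYND8 had less SETD7 RNA. Between the controls this order did not hold. In the KD control against parental cells, ZMYND8 RNA had a log2 fold change of -0.23 (SE 0.050, adjusted p = 0.00163). SETD7 had one of -1.18 there. With length and GC taken out, the change with overexpression was -0.36 (adjusted p = 0.000176). The difference of the overexpression and knockdown effects was -1.24 (SE 0.076, adjusted p = 3.65e-09). KMT2D, which monomethylates H3K4 at enhancers, had 14.4 and 13.5 FPKM in the parental libraries and 11.2 and 10.2 with overexpression (log2 fold change -0.37, SE 0.059, adjusted p = 0.000295). After knockdown it had 18.9 and 16.7 FPKM against 16.2 and 16.7 in the KD control, groups that overlapped (0.12, SE 0.065, adjusted p = 0.234). KMT2A, the MLL1 enzyme, was higher with overexpression by 0.19 (SE 0.062, adjusted p = 0.0215), although it did not pass without parental replicate 2 or overexpression replicate 1, and 17.9% of its exonic bases belong also to another gene on the same strand. The other 4 of the 7 H3K4 writers did not pass in the overexpression comparison, and 6 of 7 did not pass after knockdown. After removal of the trend over exon length and GC content, KMT2B, SETD1A and SETD1B had log2 fold changes of -0.39, -0.30 and -0.39 with overexpression in place of 0.06, 0.08 and 0.02.

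The H3K4 erasers moved in both directions. KDM1A (LSD1), which removes H3K4 mono- and dimethylation within the CoREST complex, was higher with ZMYND8 overexpression and higher after ZMYND8 knockdown. Its normalized counts were 5993 and 6048 in the parental libraries against 7487 and 7566 with overexpression (log2 fold change 0.33, SE 0.047, adjusted p = 0.000124). They were 5904 and 5956 in the KD control against 7007 and 7158 after knockdown (0.26, SE 0.048, adjusted p = 0.00279). The 4 libraries of both controls lay close together and below the 4 libraries with altered ZMYND8, and the effects differed by 0.07 (SE 0.066, adjusted p = 0.442). KDM5A, an H3K4 trimethyl eraser, had 17.5 and 18.9 FPKM in the KD control and 22.7 and 23.7 after knockdown (0.35, SE 0.056, adjusted p = 0.00129). In the overexpression experiment its groups overlapped, at 16.7 and 16.9 FPKM against 16.8 and 17.2 (0.03, SE 0.047, adjusted p = 0.616). With length and GC taken out that change was 0.29 (adjusted p = 0.000329). KDM5C, its X-linked relative, had 31.5 and 32.5 FPKM in parental cells and 28.9 and 29.1 with overexpression (-0.13, SE 0.047, adjusted p = 0.0331). It did not pass under upper quartile normalization, nor without parental replicate 2 or overexpression replicate 1, and was -0.33 (adjusted p = 0.000126) with length and GC taken out. After knockdown it had 27.9 and 26.3 FPKM against 25.1 and 24.1 in the KD control (0.14, SE 0.053, adjusted p = 0.0796), groups that did not overlap. The difference of its effects was -0.28 (SE 0.072, adjusted p = 0.00464). KDM1B and KDM5B were lower with overexpression by 0.23 (adjusted p = 0.00883) and 0.16 (adjusted p = 0.0218) on the log2 scale, and neither passed after knockdown. Neither passed with overexpression under upper quartile normalization. KDM1B also lost its call without parental replicate 1, and KDM5B without parental replicate 2, without overexpression replicate 1 and with length and GC taken out (-0.08, adjusted p = 0.195).

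**Figure D3:**
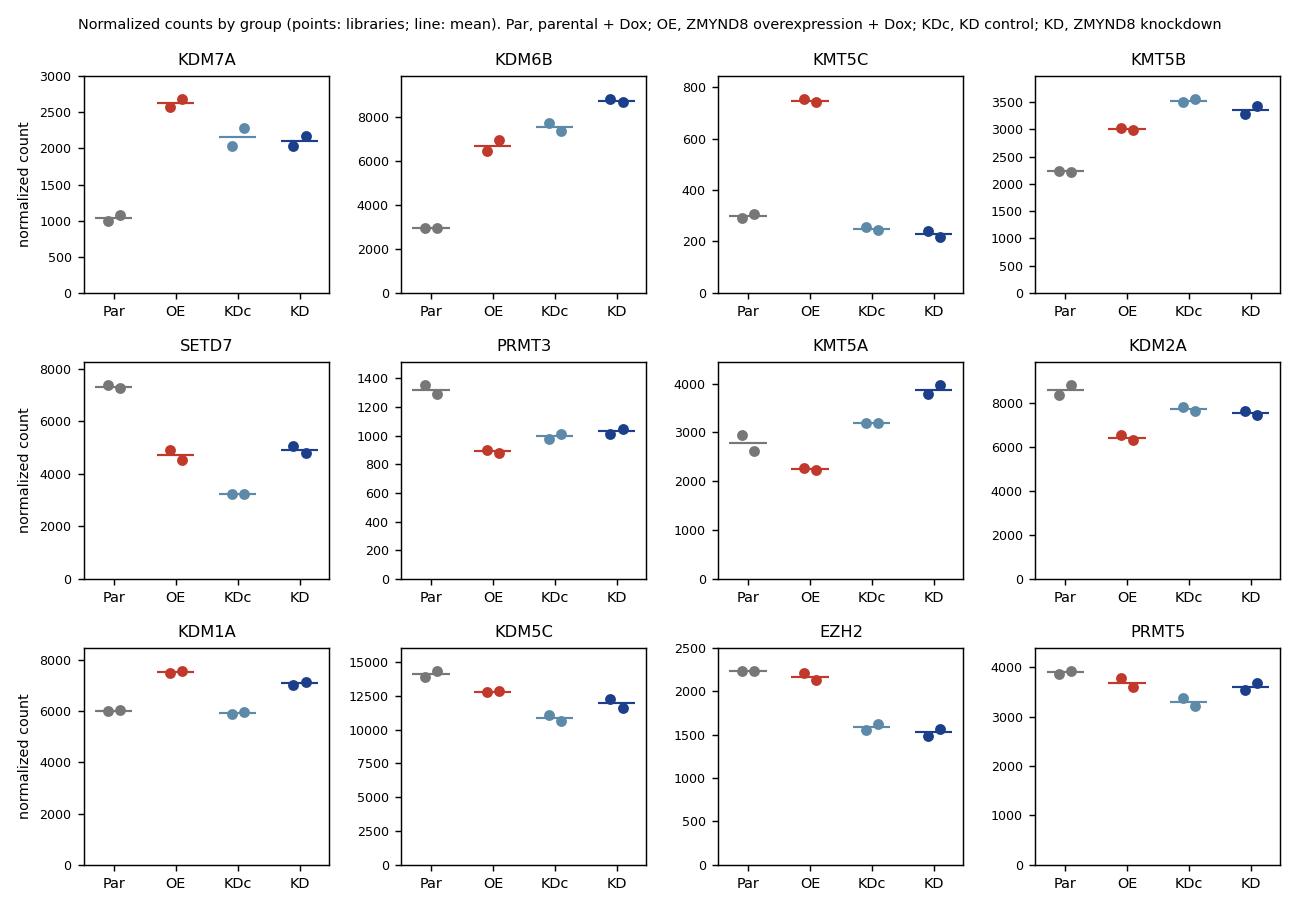
Normalized counts (axes start at 0) of 12 members in the 4 groups; points are libraries and lines are group means. KDM7A, KDM6B and KMT5C rise from the parental to the overexpression libraries, SETD7 falls there and rises from the KD control to the knockdown, and EZH2 and PRMT5 stay within a narrow range inside each experiment.

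The H3K27 erasers rose with overexpression while the H3K27 writers did not pass the test. KDM6B (JMJD3), which removes H3K27 di- and trimethylation, had normalized counts of 2951 and 2947 in the parental libraries and 6425 and 6934 with overexpression. This was a log2 fold change of 1.19 (SE 0.054, adjusted p = 1.73e-08), or 2.28-fold. Its counts were 7698 and 7352 in the KD control and 8805 and 8667 after knockdown (0.22, SE 0.050, adjusted p = 0.00904). The parental libraries thus stood apart from all others, and KDM6B was higher on both sides, with effects that differed by 0.96 (SE 0.074, adjusted p = 4.87e-08). With the length and GC trend taken out, the overexpression change was 0.87 and no longer reached the fold minimum of the study. KDM6A (UTX), the X-linked H3K27 eraser, had 2221 and 2229 normalized counts against 2796 and 2818 with overexpression (0.34, SE 0.050, adjusted p = 0.000163). In the knockdown experiment it had 2757 and 2772 against 2791 and 2731 (0.00, SE 0.052, adjusted p = 0.995). EZH2, the catalytic subunit of Polycomb repressive complex 2 in dividing cells, had 2234 and 2231 normalized counts in the parental libraries and 2208 and 2128 with overexpression (-0.03, SE 0.053, adjusted p = 0.618). It had 1553 and 1620 in the KD control and 1489 and 1572 after knockdown (-0.05, SE 0.065, adjusted p = 0.632). EZH1, its paralog of resting cells, changed by 0.06 (SE 0.068, adjusted p = 0.452) and 0.10 (SE 0.077, adjusted p = 0.395).

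Of the H3K9 erasers, KDM7A had the largest log2 fold change of all members tested with overexpression. KDM7A removes dimethylation of H3K9 and H3K27. Its normalized counts were 993.2 and 1076 in the parental libraries and 2569 and 2683 with overexpression, a log2 fold change of 1.35 (SE 0.063, adjusted p = 2.23e-08) or 2.55-fold. In the knockdown experiment the groups overlapped at 2036 and 2289 against 2037 and 2175 (-0.04, SE 0.070, adjusted p = 0.76), and the effects differed by 1.38 (SE 0.098, adjusted p = 1.89e-08). The change with overexpression was 1.39 with length and GC taken out. KDM3A, which removes H3K9 mono- and dimethylation, rose by 0.36 (SE 0.051, adjusted p = 0.000122), from 2932 and 2795 normalized counts to 3616 and 3687, and by 0.63 with length and GC taken out. KDM4A rose by 0.23 (adjusted p = 0.00851), but did not pass with length and GC taken out or without parental replicate 1, and 40.2% of its exonic bases also belong to a readthrough gene on the same strand. None of the 7 tested H3K9 erasers passed after knockdown, at an unadjusted p below 0.05 or by DESeq2 either. The 3 tested H3K9 writers SUV39H1, SUV39H2 and EHMT1 did not pass in either experiment: log2 fold changes were -0.12 to 0.09 with overexpression and 0.06 to 0.22 after knockdown, where 1 of the 3 had an unadjusted p below 0.05 and DESeq2 called 0. With length and GC taken out, all 3 passed with overexpression, SUV39H1 at -0.32 (adjusted p = 0.00861), SUV39H2 at 0.29 (adjusted p = 0.00466) and EHMT1 at 0.13 (adjusted p = 0.0362).

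The 3 writers of H4K20 methylation each passed with overexpression, in different directions. KMT5A, the monomethyltransferase of H4K20, had normalized counts of 2944 and 2624 in the parental libraries and 2277 and 2227 with overexpression (log2 fold change -0.29, SE 0.062, adjusted p = 0.00191). It had 3202 and 3188 in the KD control and 3780 and 3969 after knockdown (0.28, SE 0.051, adjusted p = 0.00249). As for SETD7, its direction was opposite in the 2 experiments, with a difference of effects of -0.58 (SE 0.084, adjusted p = 3.63e-05), and the change with overexpression was -0.47 with length and GC taken out, but 42.6% of its exonic 31-base sequences occur more than once in the genome, so its counts are uncertain. KMT5B and KMT5C convert H4K20 monomethylation to the di- and trimethylated forms. KMT5B had 2242 and 2222 normalized counts against 3031 and 2979 with overexpression (0.44, SE 0.050, adjusted p = 2.64e-05). KMT5C had 291.4 and 305.1 against 753.4 and 740.7, a 2.52-fold difference (1.33, SE 0.097, adjusted p = 7.65e-07). After knockdown KMT5C had 239.4 and 216.4 against 255.8 and 242.9 in its control (-0.13, SE 0.131, adjusted p = 0.534), and its effects differed by 1.45 (SE 0.158, adjusted p = 2.1e-06). KMT5C has a GC content of 64.3%, the highest of the members, and with length and GC taken out its change with overexpression was 0.84, below the fold minimum.

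Of the 8 members grouped under H3K36 or H3K79, KDM2A had the largest change with overexpression. KDM2A, an H3K36 mono- and dimethyl eraser that binds unmethylated CpG, was lower, at 6538 and 6329 normalized counts against 8362 and 8823 in parental cells (-0.41, SE 0.051, adjusted p = 5.18e-05). In the knockdown experiment it changed by -0.03 (SE 0.048, adjusted p = 0.681). NSD1 and NSD3, writers of H3K36 dimethylation, were higher with overexpression by 0.13 each (adjusted p = 0.0285 and 0.0319). The FPKM of NSD3 was 13.2 and 14.1 in the KD control and 11.7 and 12.3 after knockdown (-0.18, SE 0.055, adjusted p = 0.0349). NSD1 rose by 0.17 after knockdown (SE 0.052, adjusted p = 0.0345). Without a filter on low counts, or at an adjusted p below 0.01, NSD1 and NSD3 passed in neither experiment. After knockdown NSD1 also did not pass under upper quartile normalization or with length and GC taken out (0.11, adjusted p = 0.171). NSD3 did not pass with overexpression by DESeq2 or with all 8 libraries in 1 fit. SETD2, the enzyme of H3K36 trimethylation, and NSD2 did not pass in either experiment. With length and GC taken out NSD2 passed in both, at 0.17 with overexpression (adjusted p = 0.00917) and -0.22 after knockdown (adjusted p = 0.0147), and it also passed after knockdown without knockdown replicate 2. DOT1L, the H3K79 methyltransferase, had 3551 and 3273 normalized counts in the KD control and 4193 and 4011 after knockdown (0.27, SE 0.056, adjusted p = 0.00585), and 3275 and 3425 against 3632 and 3416 in the overexpression experiment, where the groups overlapped (0.08, SE 0.055, adjusted p = 0.22). With length and GC taken out, its change with overexpression was -0.21 (adjusted p = 0.00606).

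Among the arginine methyltransferases, PRMT2 and PRMT6 moved the same way in both experiments. PRMT2, a coactivator of nuclear receptors with low catalytic activity, had 4000 and 4003 normalized counts against 3225 and 3260 with overexpression (-0.29, SE 0.048, adjusted p = 0.000356), and 3230 and 3094 against 2667 and 2572 after knockdown (-0.27, SE 0.054, adjusted p = 0.00471). PRMT6, which dimethylates arginine 2 of histone H3, had 2022 and 2023 against 2401 and 2421 with overexpression (0.26, SE 0.051, adjusted p = 0.00121), and 2021 and 1986 against 2350 and 2499 after knockdown (0.28, SE 0.058, adjusted p = 0.00553). The libraries of each control lay outside the range of the libraries set against them for both genes. PRMT3, a methyltransferase of ribosomal protein, fell with overexpression from 1352 and 1287 normalized counts to 898.1 and 880.8 (-0.56, SE 0.069, adjusted p = 4.49e-05) and changed by 0.05 after knockdown (SE 0.074, adjusted p = 0.651). With length and GC taken out the change with overexpression was -0.36. PRMT5, the main enzyme of symmetric arginine dimethylation, had 3865 and 3922 against 3774 and 3591 with overexpression (-0.07, SE 0.051, adjusted p = 0.255) and 3379 and 3216 against 3535 and 3678 after knockdown (0.13, SE 0.052, adjusted p = 0.093). The strand setting of the counting is not given in the sources used here, and 28.2% of the exonic bases of PRMT5 overlap an antisense gene. PRMT8 had a fitted difference of effects of 6.94 (adjusted p = 0.0285), which rests on the few counts given above and depends on the prior count, so it is no bound.

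Of the 6 remaining SET domain genes, KMT2E, SETD3, SETD5 and SETD6 were higher with overexpression, by 0.15 to 0.23 on the log2 scale. Over all genes tested, 31.7% were higher. SETD3, SETD5 and SETD6 did not pass at an adjusted p below 0.01. SETD6 also did not pass by DESeq2 or with length and GC taken out. After knockdown 0 passed by edgeR, with 1 higher and 3 lower at an unadjusted p below 0.05. DESeq2 called 1 lower, KMT2E. With all 8 libraries in 1 fit, under upper quartile normalization or with length and GC taken out, edgeR had KMT2E and SETD6 lower. Upper quartile normalization added SETD3. KMT2E, a reader of H3K4 trimethylation without known methyltransferase activity, had 5595 and 5533 normalized counts in parental cells and 6418 and 6565 with overexpression.

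The 2 experiments share no library, so their calls can be set side by side. Of the 50 members, 19 passed only with overexpression, 2 only with knockdown (KDM5A and DOT1L), 8 in both and 21 in neither; these counts do not test whether the effects differ. Of the 18504 genes tested in both, the same classes held 42.4%, 6.39%, 19.1% and 32.1%. Of the 8, KDM1A, PRMT6, NSD1 and KDM6B were higher in both, PRMT2 lower in both, and SETD7, KMT5A and NSD3 opposite. Thus 62.5% of the 8 members that passed in both went the same way, against 38.3% of the 3529 genes that passed in both. With so few members this share is uncertain, and some knockdown calls behind it were lost under other settings, as given above. The difference of the effects passed for 12 members toward higher with overexpression than with knockdown and for 10 toward lower, of 51 tested. Over all 22619 genes these shares were 24.6% and 24.4%. Under upper quartile normalization 15 members were higher and 8 lower, against 27.6% and 21.4% of all genes. DESeq2 had 10 higher and 12 lower, against 19.5% and 24.8%. With length and GC taken out, 19 of the 22 still passed and 12 others did.

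**Figure D4:**
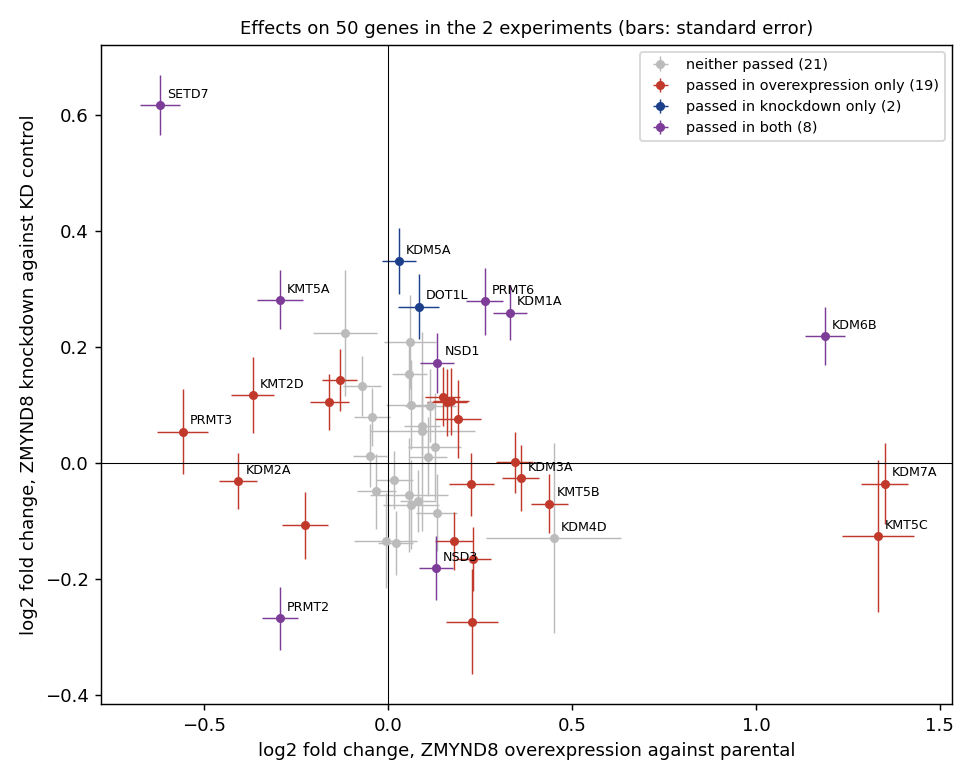
Each point is 1 of the 50 members, with its log2 fold change with ZMYND8 overexpression on the x axis, that after knockdown on the y axis and bars of 1 standard error. KDM7A and KMT5C lie far to the right near 0 on the y axis, SETD7 and KMT5A lie at the upper left, KDM1A and PRMT6 are higher in both, and PRMT2 is lower in both.

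The 2 controls differed from each other, and there the experiment, the cells, Dox and any knockdown control vector cannot be told apart. Per the labels, Dox was given to the parental cells and is not named for the KD control. Of the 50 tested members, 17 were higher in the KD control than in parental cells and 19 lower, against 33.6% and 36.2% of 20385 genes; under upper quartile normalization 22 were higher and 16 lower. The thresholds of the study called 3 higher (KDM6B 1.36, KDM7A 1.07 and KMT2E 1.03 on the log2 scale) and 2 lower (SETD7 -1.18 and SUV39H1 -1.12), against 10.8% of all genes in each direction. Without replicate 2 of the KD control, 1 member was called higher. Mean FPKM of KMT2E was 22.4 ± 0.89 in the KD control against 11.1 ± 0.088 in parental cells. SUV39H1, which trimethylates H3K9 in pericentric heterochromatin, had 344.3 and 340.7 normalized counts against 743.4 and 757.9, and 21.2% of its exonic bases overlap a gene on the other strand. EZH2 was lower in the KD control by 0.48 (SE 0.056, adjusted p = 1.65e-05) and EZH1 by 0.41 (SE 0.074, adjusted p = 0.00051). KDM5C was lower by 0.37 and PRMT5 by 0.23, whereas KDM1A differed by -0.01 (adjusted p = 0.797). In the same comparison 19 of 20 proliferation genes were lower, with a median of -1.29, and the part of that shift was not tested. For KDM6B and SETD7 the difference between the controls was larger than the change with overexpression (1.19 and -0.62), and each fold above is given only against the control of its own experiment.

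Partners and relatives of these enzymes were taken from lists that the rule did not use. Of all genes tested, 31.7% were higher and 29.1% lower with overexpression, and 13.4% and 10.8% after knockdown. The lists are short, so their counts are given beside these shares and not read as a trait of the partners. Of 9 tested partners of Polycomb repressive complex 2, 3 were higher and 4 lower with overexpression; JARID2, which targets the complex to chromatin, had a log2 fold change of 1.34 (SE 0.055) and AEBP2 of -0.68 (SE 0.062). After knockdown 1 was higher and 1 lower, JARID2 by 0.42 and PHF1 by -0.40. Of 13 COMPASS subunits, which activate the KMT2 enzymes, 4 were higher and 4 lower with overexpression, with the largest changes in HCFC2 (-0.81) and RBBP5 (-0.40), and 2 were higher and 1 lower after knockdown, with WDR5 at 0.35 and MEN1 at 0.27. Of 11 CoREST partners of KDM1A, 6 were higher and 2 lower with overexpression. RCOR2, a neural CoREST scaffold, went from 79.7 and 122.2 normalized counts in parental cells to 1242 and 1425 (3.71, SE 0.155), and GSE1 changed by 0.85. After knockdown 1 of them was higher and 3 lower, with ZMYM2 at -0.20 and RCOR1 at -0.18. Among 17 tested methylation enzymes outside the symbol rule, 5 were higher and 7 lower with overexpression. HR, an H3K9 demethylase, had 29.74 and 24.45 normalized counts against 522.3 and 460.5 (4.20, SE 0.175), and SMYD3 changed by -1.19. After knockdown 2 were higher and 2 lower, with CARM1 at 0.46 and SMYD2 at -0.27. Of 8 readers of heterochromatin and Polycomb marks, 4 were higher and 3 lower with overexpression, with CBX2 at 0.98, and 0 passed edgeR's test after knockdown, where 1 was lower at an unadjusted p below 0.05. The changes of HR and RCOR2 were thus larger than that of any tested member.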

How the data were processed

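Libraries of SK-N-SH total RNA, freed of ribosomal RNA, formed 4 groups of 2. The authors trimmed reads with Trim_Galore, removed those of low quality, aligned them to GRCh38 with Hisat2 and counted them with featureCounts on GENCODE; they deposited raw counts per gene and the summed exon length of each gene. The strand setting is not given in the sources used here. Groups came from the labels, and table columns were matched by the names in the sample titles.

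Of 60662 lines, 3 of 1 split gene were left out. Symbols came from GENCODE 44, which holds 60418 of the identifiers. The members, lists and tests were chosen with earlier results of these data known. Each comparison was fitted on its 4 libraries with edgeR 4.0.16 (R 4.3.3, limma 3.58.1): filterByExpr, TMM, two-sided quasi-likelihood test, Benjamini-Hochberg adjustment over all genes. The difference of effects used all 8 libraries. Normalized counts and FPKM used TMM factors over 8 libraries and the deposited exon lengths. The biological coefficient of variation was 0.0565 for overexpression, 0.0613 for knockdown, 0.0559 for the controls and 0.0596 for the difference. Replicates differed beyond counting noise, with a chi-square per degree of freedom of 6.05 to 8.86. With 2 libraries a group, errors cover the spread between these replicates only.

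The methods of the study give a p-value, a 1-fold change and a base mean as thresholds; the adjusted p and the log2 scale are the reading used here. Named were EZH1, EZH2, KDM5C, KDM1A and PRMT5, members called by the thresholds of the study, the 6 largest increases and 6 largest decreases that passed without overlap, the 5 largest differences of effects, untested members, and the 2 largest changes that passed in each other list, of which 1 is not reported here. Members named beyond that were chosen after their values were seen. The alternatives tried were DESeq2 1.42.0, RLE or upper quartile normalization, no filter, an adjusted p below 0.01, the replicate number as a block, all libraries in 1 fit, a loess trend over gene length and GC content (span 0.5) taken out with the median kept, and leaving out each library. The fits were tested on simulated data.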

Additional observations from a re-analysis of the deposited data

How the results depend on the processing

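With overexpression, members higher numbered 10 at an adjusted p below 0.01 and 11 to 18 when 1 library was left out, the lowest without parental replicate 1, when KDM4A, SETD5, NSD1, NSD3, KDM2B, SETD3, SETD6 and PRMT1 lost their higher calls, KDM1B its lower call and PRMT8 was gained. Taking out the length and GC trend gave 14 lower and 1 called higher, and the median was 0.12 then, 0.16 under upper quartile normalization and 0.076 to 0.11 without 1 library. After knockdown, members lower numbered 1 at an adjusted p below 0.01, 5 under upper quartile normalization, 1 without a filter, 4 with all 8 libraries, 5 without the length and GC trend and 1 to 5 without 1 library, and members higher 4 to 10. The median was 0.024 under upper quartile normalization, no filter and all 8 libraries, -0.0053 without the trend and 0.019 to 0.041 without 1 library. Between the controls the median was 0.050 under upper quartile normalization, -0.014 with all 8 libraries and -0.027 to 0.012 without 1 library. There the trend left 1 called higher and 1 lower, and leaving out 1 library gave 1 to 3 called higher.

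With the length and GC trend taken out, signs turned for 11 members with overexpression, of which 5 passed then (PRMT9 0.24, SETD1B -0.39, SETD1A -0.30, DOT1L -0.21 and KMT2B -0.39) and 1 had passed before (PRMT1, then -0.063). Between the controls they turned for 10, of which 5 had passed before (SETD2, then -0.0065, EHMT1 0.19, SETD1A 0.15, KDM4B 0.11 and KMT2B 0.099), for 5 after knockdown and for 8 in the difference of effects, where NSD1 (0.25), SETD1B (-0.38) and SETD1A (-0.27) passed then. Among the members named by rule, signs turned with overexpression for EZH2 (0.045 under upper quartile, 0.0083 without the trend), PRMT5 (0.0065 under upper quartile) and EZH1 (-0.037 without the trend); between the controls KDM1A (0.047 under upper quartile). In the difference of effects EZH2 was -0.051 under RLE and DESeq2, -0.072 without a filter and -0.036 to 0.046 when 1 library was left out (below 0 without overexpression replicate 1, KD control replicate 2 or knockdown replicate 1); EZH1 was 0.029 under upper quartile and -0.088 to 0.0067 when 1 library was left out (above 0 without parental replicate 2); KDM1A was -0.017 without a filter. Without a filter the median of all genes shifted by 0.107 on the log2 scale with overexpression. The cause was not tested.

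The replicate number as a block gave 6 members lower and 12 higher after knockdown, 19 higher and 9 lower with overexpression, and changed no other count by more than 1.5 times. After knockdown the block had 17.3% of all genes higher and 14.6% lower, against 13.4% and 10.8% without it. The deviations of same-numbered replicates correlated at 0.0097 for overexpression, -0.0111 for knockdown and -0.0283 between the controls. A small correlation over all genes cannot decide whether the replicate numbers pair the samples.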
